A study of Mus musculus with 8 samples.

Results

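Genes for voltage-gated ion channels and for potassium channels were examined for H2AK119ub, the single ubiquitin that Polycomb repressive complex 1 (PRC1) places on histone H2A. They were chosen by symbol alone from the RefSeq protein-coding genes of mm10: every Kcn gene with a letter code and a number, the numbered Scn a and b genes, Cacna1, Cacna2d, Cacnb and Cacng genes, and Hcn genes. The rule found 136 genes among 21883. The cells came from newborn mouse back skin (postnatal day 0) and were sorted as basal keratinocyte progenitors on EpCAM, Sca1 and high α6-integrin. The control group (genotype labelled Control) and the Eed cKO group (Eed-/-, a conditional knockout of the Polycomb repressive complex 2 subunit Eed) each had 2 H2AK119ub chromatin immunoprecipitation libraries and 1 peak list. The sources used here do not give the driver of the knockout, the number of animals behind a library or any pooling. A Ring1a/b double knockout library and 3 inputs, which complete the 8 libraries, were not analysed here.

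Voltage-gated channels open when the membrane potential changes, and they carry the sodium, calcium and potassium currents that shape electrical signals in nerve and muscle. Potassium channels of the inward rectifier and leak classes set the resting potential in many cell types, epithelia included. PRC1 and PRC2 together hold many genes of other lineages silent, and PRC2 methylates histone H3 while PRC1 ubiquitinates H2A.

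A gene counted as marked when a peak lay within 2000 bp of the start or end of its span. The peaks carry no score, so state, width in kb and cover are the measured quantities. Cover is the share of the widest control peak at a gene that lies under Eed cKO peaks. The control list held 4621 peaks and the Eed cKO list 2541, with median widths of 4.33 and 5.17 kb. Read depth is unknown, so a missing peak cannot be told apart from weaker sequencing or a stricter threshold, and with 1 list per genotype there is no replicate error and no test. Of the basal keratinocyte markers 1 of 9 was marked in each list, the keratin gene Krt15, and Krt5, Krt14 and Trp63 had no peak. Merkel cell markers were marked at 4 of 5 genes in each list. In control 2 of 5 suprabasal, 2 of 5 fibroblast and 2 of 4 nerve and Schwann cell markers were marked, and in Eed cKO 1 of each, while no melanocyte or leukocyte marker was marked in either list. A mark at a gene is not its expression, so these counts do not measure the purity of the cells.

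In control cells 54 of the 136 channel genes were marked, or 39.7% (95% Wilson interval 31.9 to 48.1), against 11.7% of all protein-coding genes. In Eed cKO 34 were marked, or 25.0% (18.5 to 32.9), against 7.4% of all genes. Both lists marked 30 channel genes, control alone marked 24, and Eed cKO alone marked 4. The same 3 states held 5.71%, 5.95% and 1.7% of all genes. Eed cKO peaks marked 55.6% (42.4 to 68.0) of the control-marked channel genes, beside 49% of all control-marked genes, a value inside that interval. Of the Eed cKO-marked channel genes 88.2% (73.4 to 95.3) were also marked in control, beside 77.1%, also inside it. The intervals cover counting error only. The remaining 78 channel genes had no peak at an end in either list.

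**Figure D1:**
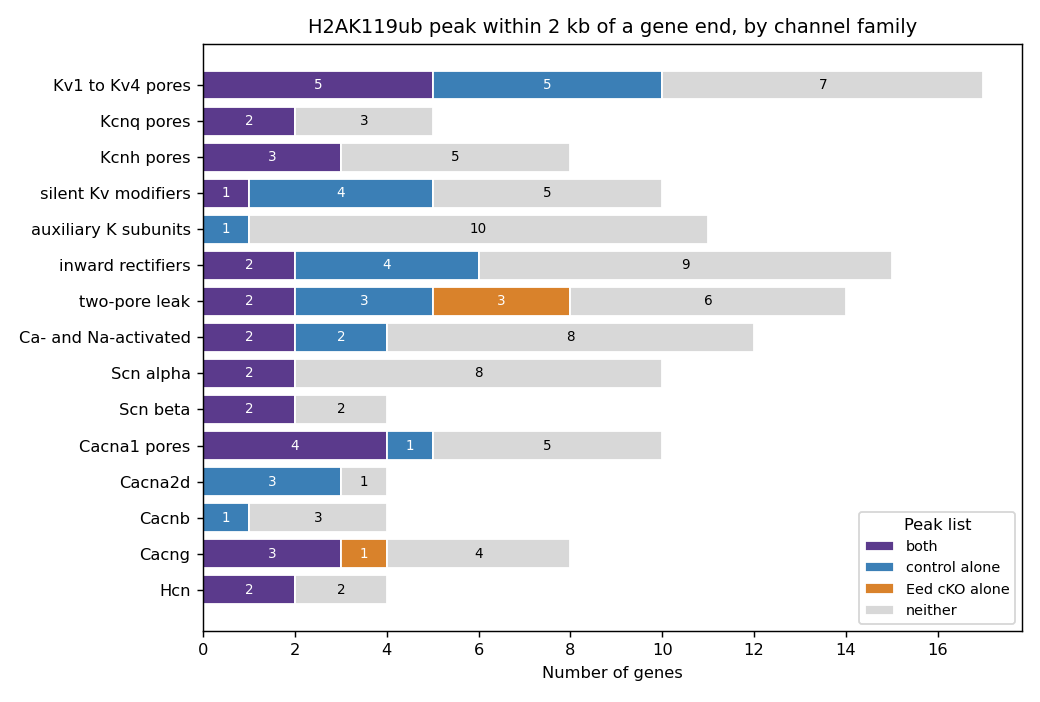
Number of genes of each channel family (bars, x axis) by the list in which a peak lay within 2000 bp of an end. The Kv1 to Kv4 pore genes had 10 of 17 members marked in control, the auxiliary potassium subunits 1 of 11, and all 3 marked Cacna2d genes were marked in control alone.

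The promoters of 6 members, from RefSeq on GRCm38.p6 (250 bases before to 50 after a start site), are printed as examples of the sequence under each state. Capitals mark each CG dinucleotide, the letters searched for. CG reads the same on both strands. It was present in 94.8% of the promoter windows of all genes, with a median of 13 per window. The first comes from a gene marked in both lists, the next pair from genes marked in control alone, then one marked in Eed cKO alone, and the last pair from unmarked genes.
Kcnc4: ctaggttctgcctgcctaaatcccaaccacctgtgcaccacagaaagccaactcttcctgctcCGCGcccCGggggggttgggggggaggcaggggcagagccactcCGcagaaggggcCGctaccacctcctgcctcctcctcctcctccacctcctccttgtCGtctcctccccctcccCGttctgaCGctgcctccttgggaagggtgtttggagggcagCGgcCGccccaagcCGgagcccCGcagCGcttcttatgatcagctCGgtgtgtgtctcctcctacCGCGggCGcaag
Cacna2d1: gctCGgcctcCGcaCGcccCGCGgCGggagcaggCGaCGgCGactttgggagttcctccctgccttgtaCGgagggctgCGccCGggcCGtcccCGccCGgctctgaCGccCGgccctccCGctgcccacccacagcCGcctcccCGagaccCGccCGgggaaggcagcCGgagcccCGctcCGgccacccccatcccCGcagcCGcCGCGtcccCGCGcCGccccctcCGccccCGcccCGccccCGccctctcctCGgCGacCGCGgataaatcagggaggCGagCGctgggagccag
Kcng3: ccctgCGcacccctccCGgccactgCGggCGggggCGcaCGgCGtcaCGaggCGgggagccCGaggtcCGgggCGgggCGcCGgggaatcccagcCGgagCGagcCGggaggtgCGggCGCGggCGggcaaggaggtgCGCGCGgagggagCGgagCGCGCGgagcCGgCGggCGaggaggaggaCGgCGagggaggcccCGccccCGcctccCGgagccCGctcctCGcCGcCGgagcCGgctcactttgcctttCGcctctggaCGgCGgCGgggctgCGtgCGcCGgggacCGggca
Kcnk10: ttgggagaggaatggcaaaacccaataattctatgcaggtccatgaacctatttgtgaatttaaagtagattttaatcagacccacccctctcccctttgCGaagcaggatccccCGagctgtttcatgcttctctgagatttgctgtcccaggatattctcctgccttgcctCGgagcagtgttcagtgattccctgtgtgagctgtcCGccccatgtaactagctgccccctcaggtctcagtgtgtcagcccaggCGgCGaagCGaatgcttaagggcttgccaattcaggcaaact
Kcnmb4: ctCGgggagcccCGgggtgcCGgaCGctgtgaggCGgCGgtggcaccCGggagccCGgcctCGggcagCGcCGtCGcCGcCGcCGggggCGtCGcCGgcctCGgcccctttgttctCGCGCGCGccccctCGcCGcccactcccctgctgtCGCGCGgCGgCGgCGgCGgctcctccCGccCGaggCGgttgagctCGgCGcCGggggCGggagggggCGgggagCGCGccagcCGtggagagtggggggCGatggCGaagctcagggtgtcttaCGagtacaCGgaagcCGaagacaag
Kcna10: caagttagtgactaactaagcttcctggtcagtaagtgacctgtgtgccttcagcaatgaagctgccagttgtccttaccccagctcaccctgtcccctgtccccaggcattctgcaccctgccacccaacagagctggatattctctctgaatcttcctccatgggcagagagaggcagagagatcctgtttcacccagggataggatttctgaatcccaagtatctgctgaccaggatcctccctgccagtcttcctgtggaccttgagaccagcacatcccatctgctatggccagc
They lie at chr3:107458849-107459148, minus strand, chr5:15934441-15934740, plus strand, chr17:83631846-83632145, minus strand, chr12:98578164-98578463, minus strand, chr10:116473474-116473773, minus strand and chr3:107182893-107183192, plus strand, in that order.

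The window at Kcng3 held 49 CG dinucleotides and that at Cacna2d1 42, and 1.25% and 3.65% of all promoter windows held as many or more. Kcnmb4, with 48, had no peak in either list. The unmarked examples were picked for the most and the fewest CG dinucleotides among unmarked channel genes in the promoter table. The marked examples were picked among those with the widest peak over the promoter. These examples therefore cannot show how CG content relates to a peak. Kcnc4 had 17 and lay under peaks in both lists, Kcnk10 had 7 and lay under an Eed cKO peak, and Kcna10 had 0. The promoter table held 99 of the 136 channel genes (72.8%), too few for a summary by state. Of the 41 control-marked channel genes with a promoter in the table, 29 had that whole promoter inside a control peak, and for Eed cKO it was 13 of 23.

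Pores of voltage-gated potassium channels, which repolarize excitable cells, had peaks at 15 of 30 genes in control. Eed cKO marked 10 of these 15 and no other (66.7%, interval 41.7 to 84.8, which takes in the 49% of all control-marked genes). The Kcnc genes encode the Kv3 pores of fast-spiking neurons. At Kcnc4 an 18.9 kb control peak (chr3:107449517-107468463) lay 89.3% under a 30.5 kb Eed cKO peak, which also reached over the other end of the gene. At Kcnc1 a control peak of 5.81 kb lay wholly within an Eed cKO peak of 8.46 kb. Kcnc2 (7.67 kb) was marked in control alone, and the closest Eed cKO peak was 667 kb from its ends.

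Among the Kv1 pores, which set the firing threshold of axons, Kcna1, Kcna3, Kcna6 and Kcna7 were marked in control. Only Kcna7 was also marked in Eed cKO, 1 of 4 (25.0%, interval 4.56 to 69.9, which takes in the 49% of all control-marked genes). Its 16.8 kb control peak, shared with Lhb, Ntf5 and Ruvbl2, held a 4.22 kb Eed cKO peak that lay at Kcna7 and at none of these 3 neighbours, a cover of 25.2%. Kcna1 (6.34 kb), Kcna3 (4.92 kb) and Kcna6 (3.00 kb) were marked in control alone. Kcna6 is a matter of position: an Eed cKO peak covered 72.8% of its control peak but ended 2.34 kb from the gene, just outside the window. Kcna2, Kcna4, Kcna5 and Kcna10 had no peak at an end. Kcna5 lies on chromosome 6 with Kcna1 and Kcna6, and its nearest control peak was 103 kb away.

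Kcnd3, a Kv4 pore of heart and brain, had a 2.63 kb control peak, 90.9% of it under a 2.42 kb Eed cKO peak. A second, 4.41 kb Eed cKO peak ended 5 bp upstream of its span. Kcnb2, Kcnd1 and Kcnd2 were unmarked.

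The Kcnq and Kcnh pores had the same state in both genotypes at every member. The intervals for 2 of 2 Kcnq genes (34.2 to 100.0) and 3 of 3 Kcnh genes (43.9 to 100.0) take in the 49% of all control-marked genes. Kcnq1, the cardiac and epithelial delayed rectifier, had a control peak of 15.2 kb (chr7:143096985-143112147), and an 11.8 kb Eed cKO peak took in 71.3% of it. Kcnq3 and Kcnq5, pores of the neuronal M-current, had no peak at an end. Kcnh2, the ERG pore of cardiac repolarization, lay under a 9.06 kb control peak and an 18.6 kb Eed cKO peak that covered all of it. Kcnh1 (2.83 and 4.76 kb) and Kcnh3 (10.5 and 11.2 kb) were covered to 100.0% and 99.6%. The other 5 Kcnh genes were unmarked.

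Electrically silent subunits form no channel alone and modify Kv2 pores. They were marked at 5 of 10 genes in control, all 4 Kcng genes among them. In Eed cKO 1 of 10 was marked (10.0%, interval 1.79 to 40.4, which takes in the 7.4% of all genes). The interval for 1 of 5 control-marked genes (3.62 to 62.4) takes in the 49% of all control-marked genes. The gene in both lists was Kcng1, whose 6.33 kb control peak lay wholly under an 11.4 kb Eed cKO peak. Kcng2 (7.33 kb), Kcng3 (9.34 kb), Kcng4 (6.70 kb) and Kcns1 (6.03 kb) were marked in control alone, with 0% cover. Eed cKO peaks came no closer than 8.08 kb to the end of Kcng3 and 45.5 to 216 kb from those of the other 3. Kcnf1, Kcns2, Kcns3, Kcnv1 and Kcnv2 were unmarked.

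Of the auxiliary potassium channel subunits 1 of 11 was marked in control (9.09%, interval 1.62 to 37.7), near the 11.7% of all genes, and 0 of 11 in Eed cKO. The marked gene was Kcne3, a partner of Kcnq1 in epithelia, with a 5.03 kb control peak, and the closest Eed cKO peak was 126 kb away. The Kcnab beta subunits, the Kcnip calcium-binding partners of Kv4 pores, and Kcne1, Kcne2 and Kcne4 had no peak at an end. Kcnip1 and Kcnip3 had peaks inside their spans in both lists.

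Inward rectifiers, which hold the resting potential near that for potassium, were marked at 6 of 15 genes by the control list. The Eed cKO list marked 2 of those 6 (33.3%, interval 9.68 to 70.0, which takes in the 49% of all control-marked genes). Kcnj4, a Kir2 pore, had a 10.7 kb control peak, shared with Kdelr3, that lay 99.2% under a 15.8 kb Eed cKO peak. Kcnj12, another Kir2 pore, was marked in both lists by different regions. Its 4.75 kb control peak lay just inside its 5′ end, its 3.66 kb Eed cKO peak ended upstream of the gene, a further 3.31 kb Eed cKO peak lay at its 3′ end, and cover was 0%. Kcnj2 (2.45 kb), Kcnj8 (5.00 kb), Kcnj9 (2.43 kb) and Kcnj10 (4.88 kb) were marked in control alone. Kcnj8 encodes the pore of vascular ATP-sensitive channels, Kcnj10 the main glial rectifier and Kcnj9 a G-protein-gated pore.

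Leak channels of the Kcnk class, which pass a background potassium current, were marked at 5 of 14 genes in each list. Of these, 2 genes were in both lists. The interval for 2 of 5 control-marked genes (11.8 to 76.9) takes in the 49% of all control-marked genes. The 2 in both lists were Kcnk1 (4.25 and 3.15 kb, 68.2% cover) and Kcnk13 (6.45 and 5.75 kb, 89.2% cover). Kcnk2 (1.99 kb), Kcnk3 (3.71 kb) and Kcnk12 (2.48 kb) were marked in control alone. Kcnk4, Kcnk6 and Kcnk10 were marked in Eed cKO alone and make up 3 of the 4 channel genes in that state. Their Eed cKO peaks were 6.30, 4.39 and 7.25 kb wide, and none overlapped a control peak. Kcnk2, Kcnk4 and Kcnk10 encode the mechanosensitive TREK and TRAAK channels, so 1 of these 3 relatives was marked in control alone and the other two in Eed cKO alone.

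Among calcium- and sodium-activated potassium channels, 4 of 12 genes were marked in control and 2 of 12 in Eed cKO. Those 2 were among the 4 (50.0%, beside 49% of all control-marked genes). Kcnn4, the intermediate-conductance channel of epithelia and blood cells, had a 12.1 kb control peak at its 3′ end. In Eed cKO a 23.9 kb peak covered 99% of it, took in a separate 4.56 kb control peak inside the gene and came within 2000 bp of the 5′ end. Kcnn1, a small-conductance channel, had 3.57 and 3.87 kb peaks. Kcnma1, the large-conductance pore, had a 7.52 kb control peak and lay 707 kb from the closest Eed cKO peak. Kcnn3 had a 2.40 kb control peak that met no Eed cKO peak, although 3 Eed cKO peaks of 3.76 to 11.8 kb lay inside its span, the nearest 2.56 kb from its end. The 4 Kcnmb beta subunits of the large-conductance channel, Kcnn2, Kcnt1, Kcnt2 and Kcnu1 were unmarked.

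Sodium channel genes, which carry the upstroke of the action potential, were marked at 4 of 14 genes in control, and Eed cKO marked the same 4. The interval for 4 of 4 was 51.0 to 100.0, beside 49% of all control-marked genes, and this difference was not tested. Scn8a, the axonal pore of central neurons, had a 20.1 kb control peak at its 3′ end (chr15:101038128-101058187), shared with Fignl2 and lying 90.1% under an 18.7 kb Eed cKO peak. Its 5′ end had a separate 5.96 kb control peak and no Eed cKO peak. Scn10a and Scn11a of sensory neurons were unmarked. The 5 pore genes on chromosome 2 (Scn1a, Scn2a, Scn3a, Scn7a and Scn9a) were also unmarked, and the closest control peak to any of them was 778 kb away, from Scn7a. Scn4a of skeletal muscle was unmarked too. Of the beta subunits, which are cell adhesion molecules that tune the pores, Scn4b (8.90 and 5.30 kb, 57.9% cover) was marked in both lists. Scn2b, which neighbours Scn4b, and Scn3b were not.

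Calcium channel pores, which couple depolarization to secretion and contraction, were marked at 5 of 10 genes in control, 4 of them also in Eed cKO. The interval for 4 of 5 (37.6 to 96.4) takes in the 49% of all control-marked genes. The T-type pores, which open at low voltage, were all marked in control. Cacna1g (7.62 and 9.45 kb) and Cacna1h (6.72 and 7.0 kb) had 100.0% and 98.9% cover, whereas Cacna1i had a 4.54 kb peak in control alone. Cacna1s, the pore of skeletal muscle, had 4.42 and 6.16 kb peaks shared with Ascl5. Cacna1e, a neuronal R-type pore, had 5.26 and 3.21 kb peaks with 61.1% cover. Cacna1a, Cacna1b, Cacna1c, Cacna1d and Cacna1f had no peak at an end, though Cacna1a, Cacna1c and Cacna1d had one or more inside the gene.

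Differences between the classes of auxiliary calcium channel genes were not tested. Cacna2d subunits, which bring the pore to the membrane, were marked at 3 of 4 genes in control and at 0 of 4 in Eed cKO. The interval for 0 of 3 (0.0 to 56.1) takes in the 49% of all control-marked genes. Cacna2d1, the target of gabapentin, had a 13.5 kb control peak (chr5:15929152-15942656) and lay 6830 kb from the closest Eed cKO peak. Cacna2d2 (3.63 kb) and Cacna2d3 (5.92 kb) were also marked in control alone, and Cacna2d4 was unmarked. Of the cytoplasmic Cacnb subunits Cacnb4 (2.60 kb) was marked, in control alone.

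Cacng genes encode gamma subunits, several of which traffic glutamate receptors. Control marked 3 of 8, and Eed cKO marked these 3 and Cacng4. The interval for 3 of 3 (43.9 to 100.0) takes in the 49% of all control-marked genes. Cacng6 and Cacng8 shared a 19.2 kb control peak (chr7:3408211-3427429), 88.3% of which lay under a 13.4 kb and a 3.58 kb Eed cKO peak. It was the only control peak at more than 1 channel gene. Cacng7, close by, had 2.78 and 3.97 kb peaks with 63.1% cover. Cacng4 had an 8.54 kb peak in Eed cKO alone, with the nearest control peak 193 kb away.

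Hcn genes, which carry the pacemaker current, were marked at 2 of 4 genes in both lists. The interval for 2 of 2 control-marked genes (34.2 to 100.0) takes in the 49% of all control-marked genes. Hcn4, the sinoatrial node pore, had peaks of 8.77 and 11.0 kb with 99.8% cover, and Hcn2 had peaks of 4.03 and 7.09 kb with full cover. Hcn3 was unmarked.

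**Figure D2:**
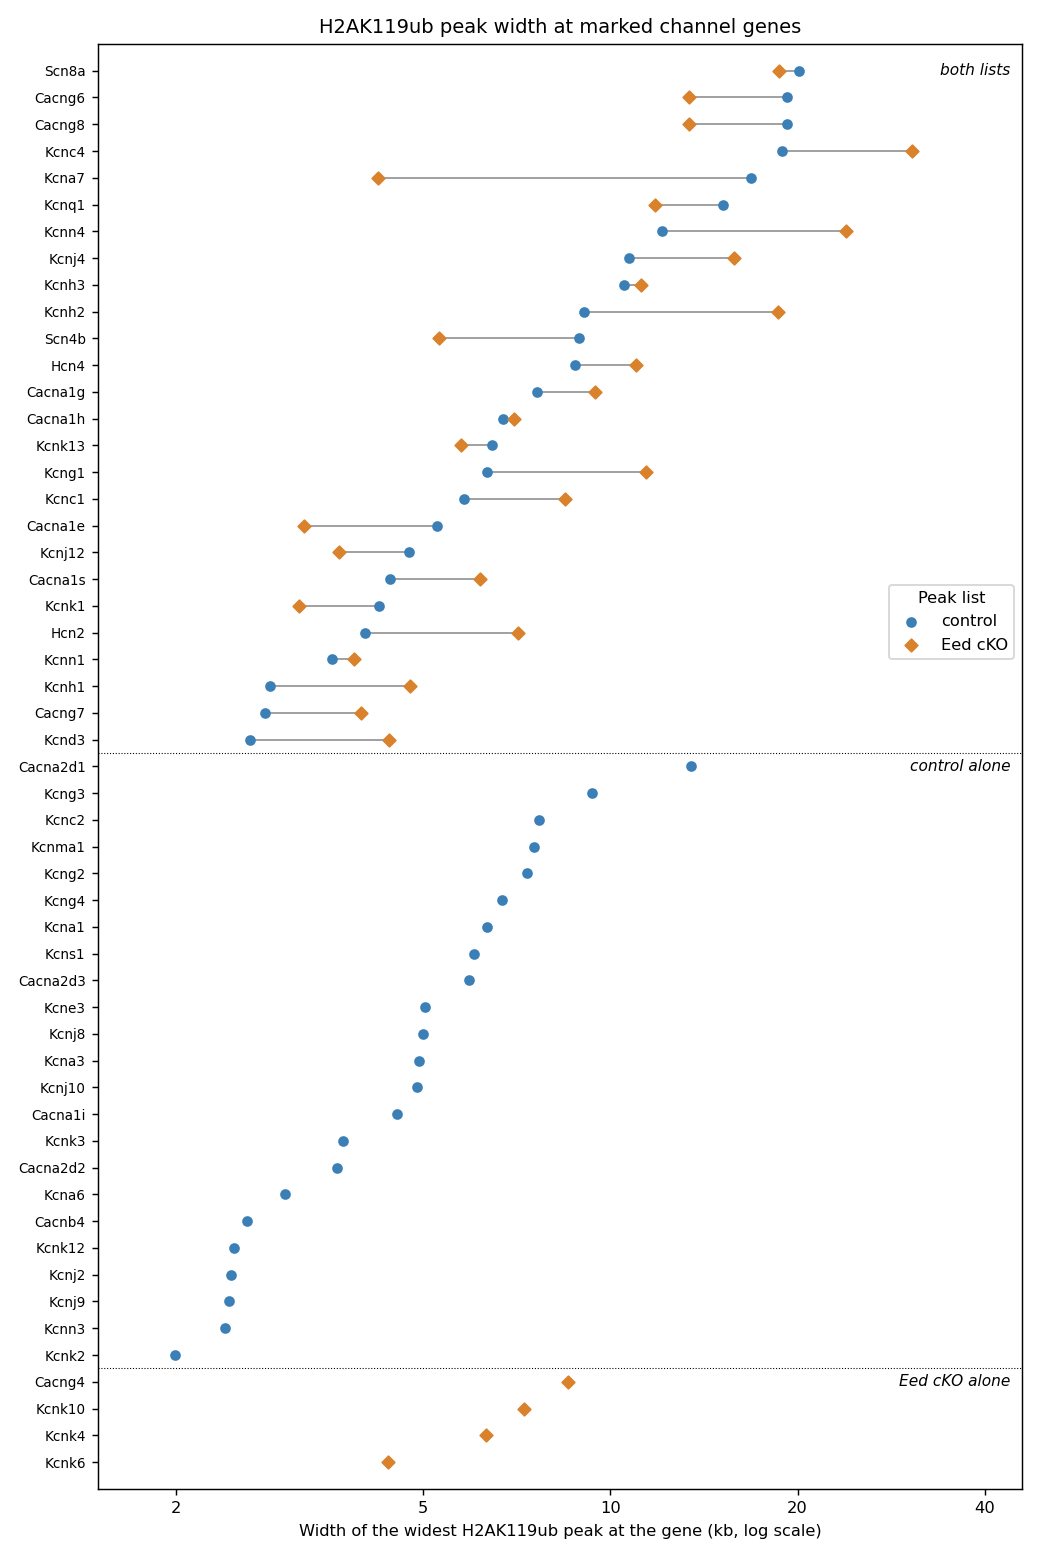
Width of the widest H2AK119ub peak at 53 marked channel genes in kb on a log axis, in control (circles) and Eed cKO (diamonds), with a line joining the values of a gene marked in both lists. Of the 26 genes plotted from both lists, 16 have the wider peak in Eed cKO, and the 23 plotted from control alone reach from 1.99 to 13.5 kb.

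Across the 54 control-marked channel genes the widest peak had a median of 5.87 kb (range 1.99 to 20.1), beside 5.90 kb over all control-marked genes. The 34 Eed cKO-marked ones had a median of 7.17 kb (3.1 to 30.5), beside 6.70 kb. The widest peak anywhere in the control list was 137 kb. Channel genes in both lists had a median control width of 6.70 kb and those in control alone 4.90 kb, beside 7.36 and 4.83 kb for all genes in those states. With control-marked genes split at the median of 5.90 kb over all genes, the Eed cKO list marked 12 of 27 channel genes with narrower peaks and 18 of 27 with wider ones (44.4% and 66.7%, intervals 27.6 to 62.7 and 47.8 to 81.4). Over all genes the shares were 35.1% and 62.8%.

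Of the 30 channel genes in both lists, 20 (66.7%) had a widest Eed cKO peak wider than their widest control peak. Over all genes in both lists the share was 48.5%. The median ratio of these Eed cKO to control widths was 1.22, beside 0.992. At Kcnd3, counted as wider, and Kcnj12, counted as narrower, the widest Eed cKO peak met no control peak. The highest ratios were 2.05 at Kcnh2, 1.97 at Kcnn4 and 1.81 at Kcng1, and the lowest was 0.252 at Kcna7. At Kcnn4, Kcnc4 and Kcng1 the Eed cKO peak spanned several control peaks, beside 90 of the 1249 genes in both lists over all genes. In the 23 channel genes where 1 control peak met 1 Eed cKO peak, 16 were wider in Eed cKO (69.6%, median ratio 1.21). Over all 989 genes with such a pair it was 48.9%, with a median ratio of 0.995. No test of this difference was made, since genes are not replicates and width depends on depth and threshold.

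**Figure D3:**
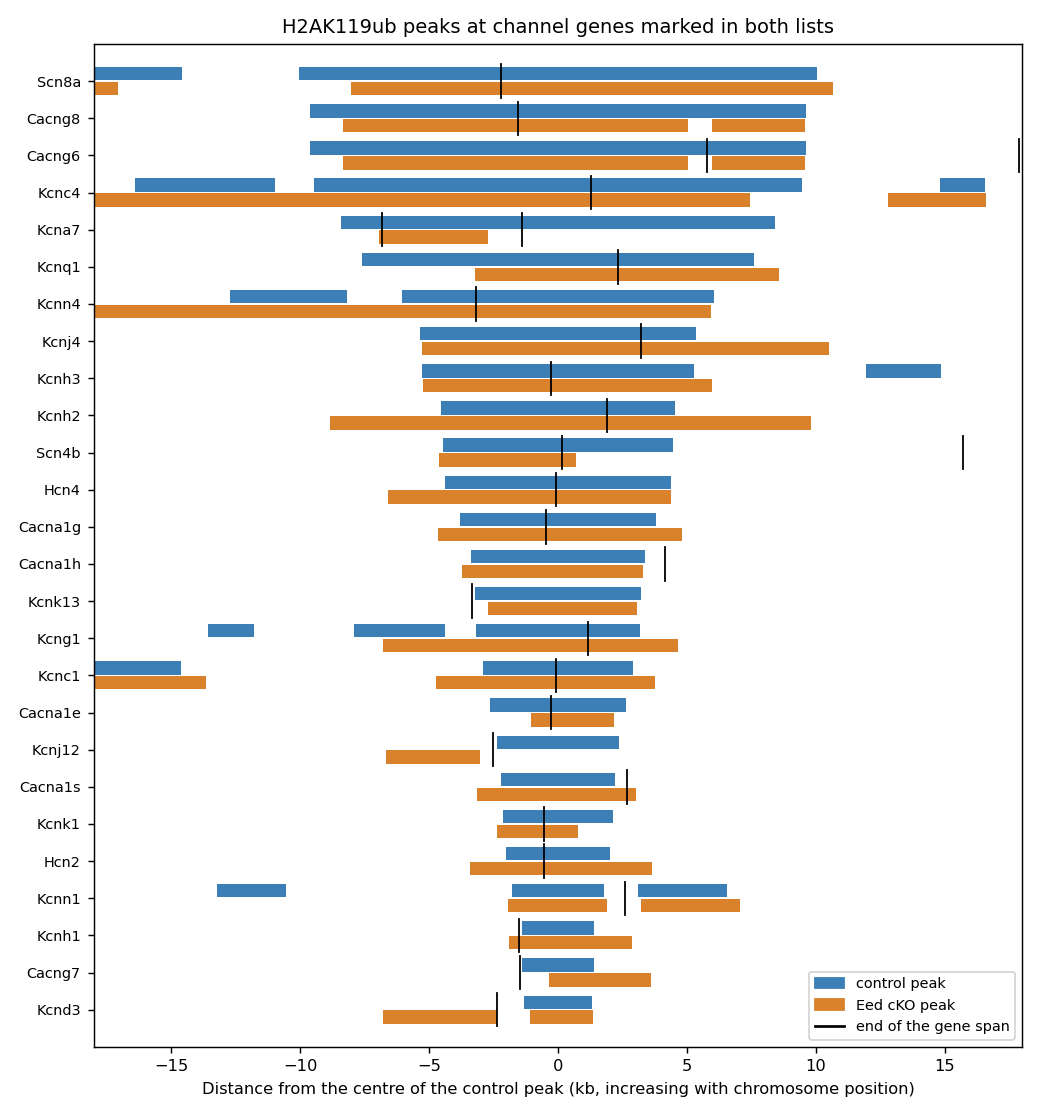
Control (upper bar) and Eed cKO (lower bar) peaks at 26 channel genes marked in both lists, as distance in kb from the centre of the widest control peak, with black ticks at the ends of the gene span. At Kcnh2, Kcnc1 and Hcn2 the Eed cKO peak extends past both ends of the control peak, at Kcna7 it lies in one part of it, and at Kcnj12 the peaks do not meet.

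Cover ranged from none to complete. Of the 54 widest control peaks at channel genes, 24 (44.4%) met no Eed cKO peak and 29 (53.7%) were covered over more than 50%, with Kcna7 between at 25.2%. The lowest covers above 50% were those of Scn4b (57.9%), Cacna1e (61.1%), Cacng7 (63.1%), Kcnk1 (68.2%), Kcnq1 (71.3%) and Kcna6 (72.8%), and the others were at 88.3% or more. Over all control-marked genes the shares were 50.0% and 42.0%. The median cover was 62.1% over the control-marked channel genes (interval 0.0 to 89.3), beside 7.48% over all, a value inside that interval. The median cover was 99% over the channel genes in both lists, beside 87.7%. Of the 24 channel genes in control alone, 1 (Kcna6) had its control peak touched by an Eed cKO peak, beside 79 of 1301 over all genes. From an end of these 24 genes to the closest Eed cKO peak the median distance was 185.5 kb, under 10 kb for 3 (Kcna6, Kcnn3 and Kcng3) and over 100 kb away for 17. The 4 genes marked in Eed cKO alone were 48.1 to 319 kb from the nearest control peak.

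**Figure D4:**
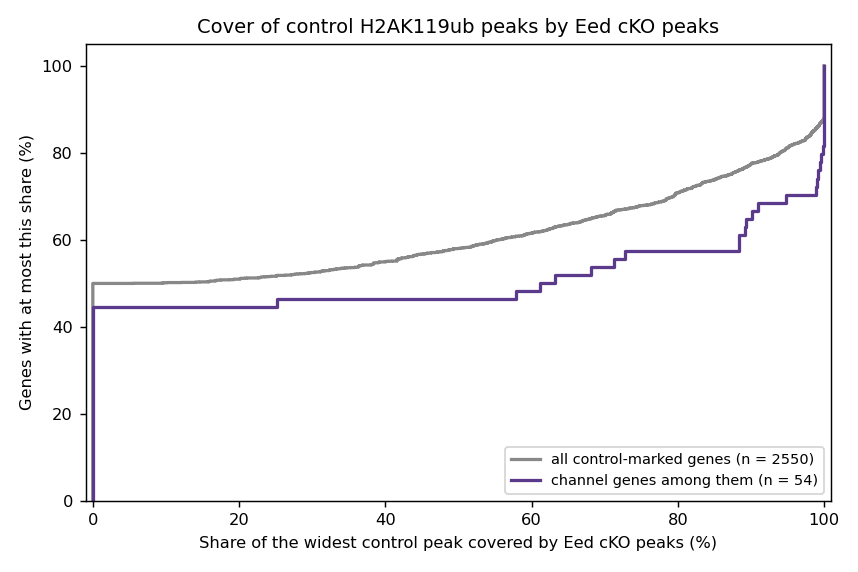
Cumulative share of genes (y axis, %) by the share of their widest control peak that Eed cKO peaks cover (x axis, %), for all 2550 control-marked genes and the 54 channel genes among them. The channel genes start at 44.4% with no cover, against 50.0% of all genes, and 53.7% of them lie above 50% cover.

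The distance rule left few genes close to its limit. Just inside 2000 bp in control were Kcnj9 (1971 bp), Kcna6 (1523 bp) and Kcna1 (1259 bp), and just outside were Kcns3 (2174 bp), Cacnb1 (2558 bp) and Scn2b (3939 bp). In Eed cKO Cacng7 (1095 bp), Cacna1h (860 bp) and Kcnk13 (627 bp) were the farthest inside, and Kcna6 (2340 bp), Kcnn3 (2557 bp) and Scn2b (3790 bp) the nearest outside. A peak lay directly over an end of 38 channel genes in control and 27 in Eed cKO. With strand known for 41 control-marked channel genes, 38 (92.7%) had a peak at the 5′ end, beside 84.1% of all control-marked genes with known strand. In Eed cKO it was 21 of 23 (91.3%), beside 78.9%. Kcna6, Kcnn4 and Cacng8 were the 3 marked at the 3′ end alone in control.

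Peaks also lay inside channel genes, away from their ends. Of the 82 channel genes unmarked in control, 9 (11.0%) had such a control peak, beside 2.33% of all unmarked genes. Of the 102 unmarked in Eed cKO, 6 (5.88%) did, beside 1.54%. Channel genes were also longer, with a median span of 44.7 kb against 17.2 kb, and the part of length in this difference was not tested. At Kcnip3 a 9.46 kb control peak, 22.1 kb inside the gene, held 1 of its 3 RefSeq promoters and was covered to 94.2% by 2 Eed cKO peaks. At Cacna1a a 4.57 kb control peak lay wholly under a 6.46 kb Eed cKO peak, and at Kcnt1 a 3.35 kb control peak lay wholly under a 4.27 kb one. The 4.44 kb control peak inside Cacna1d, which also held a promoter of the gene, and the 2 inside Cacna1c (4.56 and 2.83 kb) met no Eed cKO peak. Kcnh4, Cacnb1 and Kcns3 had inside peaks in control alone, and Kcnip1 had them in both lists.

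Inside genes that were also marked at an end, cover differed from peak to peak. A 6.34 kb control peak 43.8 kb into Kcnq1 lay wholly under a 9.53 kb Eed cKO peak. At Cacna1e an 11.4 kb control peak that held its RefSeq promoter met no Eed cKO peak, while the 5.26 kb peak at the end of its span did. At Kcnh2 a 7.26 kb inside control peak, which held the promoter listed for the gene, likewise met none. Other genes marked at an end that also had inside peaks were Cacna1g, Kcnc4, Kcng1, Kcng3, Kcnh3, Kcnn1, Kcnn3, Kcnn4 and Scn8a.

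Most channel gene peaks lay within 2000 bp of an end of no protein-coding gene outside the set. The 54 control-marked genes had 59 peaks, 11 of which also lay at a protein-coding gene outside the set. The 34 Eed cKO-marked genes had 39 peaks, 9 of them so shared. The same share over the peaks at all genes was not computed.

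A list of 33 genes for proteins that bind, traffic or anchor these channels held 10 marked genes in control (30.3%) and 3 in Eed cKO (9.09%, near the 7.4% of all genes). Of the 10, 2 were in both lists (20%, interval 5.67 to 51.0, which takes in the 49% of all control-marked genes). Stac3, which couples the muscle calcium channel to contraction, had 9.04 and 32.2 kb peaks, and Lgi4, a secreted glial ligand, 8.38 and 10.3 kb. Stac2, Rem2, Gem, Fgf12, Lgi1, Adam22, Ank2 and Lrrc38 were marked in control alone, with peaks of 1.22 kb (Gem) to 8.35 kb (Stac2) and no cover. Fgf11, an intracellular sodium channel modulator, had an 11.3 kb peak in Eed cKO alone. A list of 56 channels of other families held 6 marked genes in each list (10.7%), 4 of them in both: Asic1, Asic4, Catsper3 and Trpm2. Trpc1 and Trpc4 were marked in control alone and Tpcn1 and Cngb1 in Eed cKO alone. The share for these other channels was near the 11.7% of all genes in control.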

How the data were processed

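H2AK119ub was profiled by ChIP-seq. The authors deposited 1 peak list per genotype of positions (chromosome, start and end, per the file headers) without a score, on mm10 per the submitters' processing notes. The submitters' processing notes name Bowtie2 2.3.3.1 and SAMtools 1.9. How peaks were called and thresholded, whether inputs were used and how the 2 libraries were joined is not given in the sources used. The lists were assigned to genotypes by the genotype in their names.

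Gene spans and promoters came from RefSeq on GRCm38.p6 (mm10), genes on chromosomes 1 to 19, X and Y. Strand, absent from the gene table, was taken from the promoter table. Starts were read as 0-based and are given from 1. A gene was marked when a peak met a window of 2000 bp on either side of either end by 1 bp. All 136 members entered every count, with no filter, except counts that need strand or a promoter and counts of plotted genes. Strand and a promoter were known for 99 of the members.

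The members, families and partner lists were chosen with earlier results of these data known. Members marked in either list were named, except some that are not reported here singly and enter the counts only. No test was made. The medians of CG content by state were not computed, since 72.8% of members had a promoter, under the 80% required. All of 200 genes with planted peaks were recovered in simulated data. Python 3.11.15, numpy 2.4.6, pandas 2.3.3 and scipy 1.17.1 were used. Alternatives were other windows, overlaps and peak subsets.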

Additional observations from a re-analysis of the deposited data

How the results depend on the processing

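With 8 other settings of window, overlap and peak list, cover over all control peak bases, and 2 settings added after the data were seen (peaks at no other gene, and any Eed cKO peak over the control peak), 78 of 83 recomputed values stayed within 1.5 times a count, or within the interval of a share or median. These limits are wide, since counts of 37 to 63 control-marked channel genes, beside 54 in the main setting, fell within them. The settings that moved a value remove genes or peaks by construction. With the 5′ end alone, which only the 99 genes of known strand allow, 21 channel genes were marked in Eed cKO and 18 in both lists. With the control list trimmed to its 2541 widest peaks, control marked 39 channel genes (28.7%) and Eed cKO 34 (25.0%). All genes gave 8.33% and 7.4% in that setting. There, 14 channel genes had a mark in control alone and 9 had one in Eed cKO alone. With the wider peaks of each list the median control width was 7.33 kb. The share of control-marked channel genes also marked in Eed cKO ranged from 47.4% (5′ end alone) to 64.1% (trimmed control list) over the settings run. All control-marked genes gave 45.9% and 55.7% in those settings. The control share of channel genes ranged from 27.2% (wider peaks, where all genes gave 7.83%) to 46.3% (gene span with 2000 bp, where all genes gave 13.7%). Leaving out a library was not possible with 1 list per genotype, depth is unknown, and CG content by state was not run. No paired analysis was possible because the lists carry no replicates.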
